A study of Bos taurus with 18 samples.

Results

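The comparison described here set the corpus of the epididymis against its caput in Holstein bulls of high fertility. It used 6 of the 18 arrays of the study, chosen by their titles: 3 of caput and 3 of corpus, with every difference taken as corpus minus caput. The bulls were sexually mature, 51 to 71 months old and slaughtered for reasons of the milk yield of their daughters, and the labels give no treatment for any group. Fertility was the adjusted share of cows not returning to service 56 days after a first insemination, from 282 to 486 inseminations per bull. The whole study covered caput, corpus and cauda of 6 bulls, with 3 bulls of either fertility class, high or medium-low. Organs reached the laboratory on ice within 2 hours, pieces of each segment were frozen, and 200 ng of total RNA per piece was labelled by a whole-transcript method for a bovine gene array.

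The epididymis is a single coiled duct that carries sperm from the efferent ductules of the testis to the vas deferens. Its epithelium secretes a different set of proteins into the lumen in each segment, and sperm gain motility and the ability to fertilise as they pass through caput and corpus, before they are stored in the cauda. Principal cells secrete and take up proteins, clear cells acidify the lumen, basal cells lie under both, and smooth muscle and vessels surround the duct. Since pieces of whole tissue were measured, fewer cells of a type and less RNA per cell cannot be told apart in any result below.

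Each array gave 1 log2 value per probe set, a group of probes for 1 transcript, over 26773 probe sets. Values ran from 2.56 to 14.51 with array medians of 7.26 to 7.39. Replicates correlated across probe sets at 0.989 to 0.990 within high fertility caput and at 0.988 to 0.989 within high fertility corpus, against 0.955 to 0.963 for a caput array with a corpus array. The water and solute channel AQP9, a gene of epididymal principal cells, lay between 12.59 and 12.97 on all 9 high fertility arrays, caput, corpus and cauda. No detection call comes with the values, so the lowest levels can be background and a difference from such a level is not an exact fold. The labels do not say whether replicate 1, 2 or 3 marks the same bull in each segment. The limma p-values set each difference against a moderated spread pooled over the 9 high fertility arrays, cauda included, without pairing. An exact unpaired permutation test of 3 arrays against 3 could not go below 0.1.

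Corpus and caput differed in 6201 of 26773 probe sets, or 23.2%, at a limma adjusted p under 0.05. Of these, 3103 were higher in corpus (11.6% of all) and 3098 lower (11.6%). With array medians subtracted the split moved to 2174 higher and 3688 lower, or 37.1% higher in place of 50%. As deposited, the median difference over all probe sets was 0.07 on the log2 scale. Differences of at least 2-fold were found in 1273 called probe sets (4.75%), 516 of them higher in corpus (1.93%) and 757 lower (2.83%). Caput and corpus arrays did not overlap in 11602 probe sets, or 43.3%. The median size of a called difference was 0.59 and the smallest was 0.23. The last probe set inside the threshold had a limma adjusted p of 0.04997 and the first one outside had 0.05003. The plot of all probe sets shows the same range of differences on both sides, with the largest ones at middle and high mean levels.

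**Figure D1:**
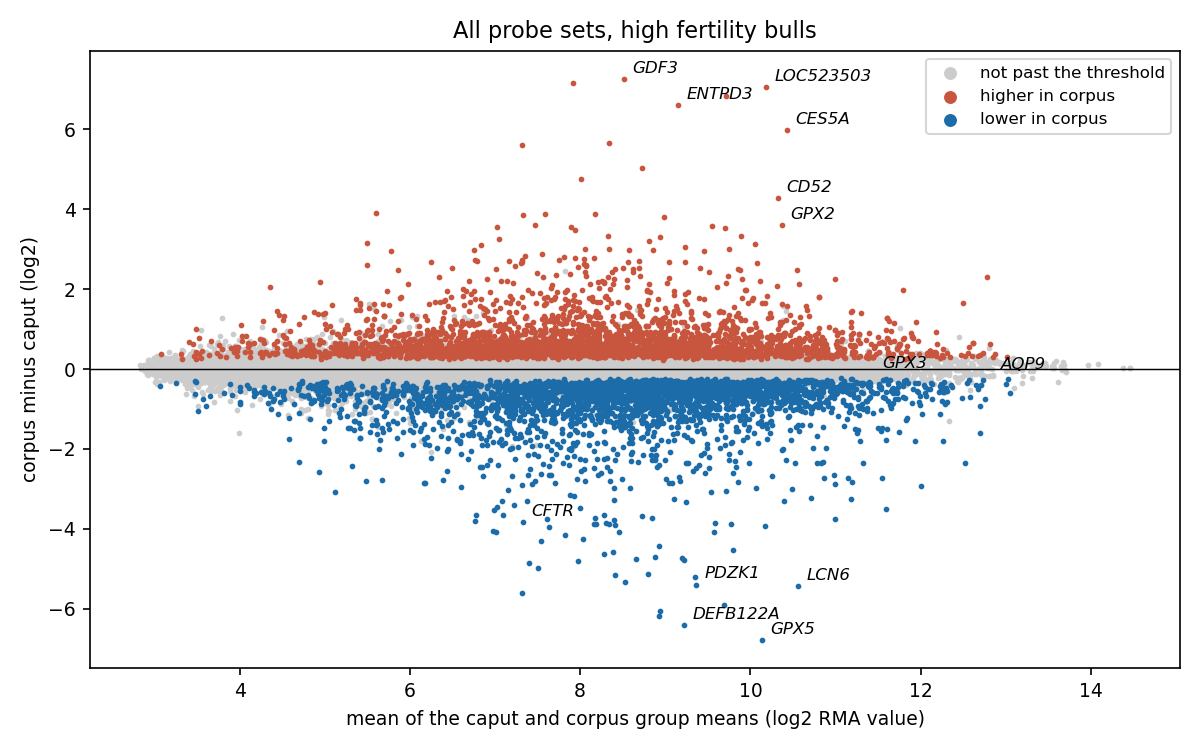
Each point is 1 of 26773 probe sets, with the mean of the caput and corpus group means on the x axis (log2 RMA value) and corpus minus caput on the y axis (log2). Red points are the 3103 called higher in corpus and blue points the 3098 called lower (limma adjusted p under 0.05), and named examples run from GDF3 at 7.26 to GPX5 at -6.78.

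GDF3, a secreted ligand related to TGF-beta, was the named gene with the largest rise. Its caput arrays read 4.95, 4.90 and 4.80 and its corpus arrays 12.23, 12.18 and 12.03. All corpus arrays were far above all caput arrays, a rise of 7.26 (log2, SE 0.16, limma adjusted p = 2.86e-08). In cauda the same bulls were back at 4.99, 4.54 and 5.23, spread around the caput arrays. Among the 33 TGF-beta family ligands measured, 5 were higher in corpus (15.2%) and 2 lower (6.06%). Over the 18010 named genes 12.7% were higher and 14.1% lower, and these shares stand beside every list count below. GDF11 rose by 1.75, while INHBA, a subunit of activins and inhibins, fell by 1.41 and TGFB1 fell by 0.85. The median over the ligands was 0.19, against 0.06 over all named genes. The count of 5 fell to 2 when caput replicate 2, caput replicate 3, corpus replicate 1 or corpus replicate 3 was left out or with cyclic loess on top. It was 3 in the 6 compared arrays alone and with array medians subtracted or quantile normalization, and 7 with the replicate number as a block.

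ENTPD3, a membrane enzyme that cleaves extracellular nucleoside triphosphates, read 5.89, 5.75 and 5.88 in caput and 12.64, 12.63 and 12.08 in corpus. The rise of 6.61 (SE 0.15, limma adjusted p = 3.31e-08) was reversed in cauda, where the arrays read 6.66, 6.62 and 6.45. CES5A, a carboxylesterase secreted into the epididymal lumen, went from 7.12, 7.80 and 7.39 to 13.36, 13.48 and 13.42. Its rise of 5.98 (SE 0.51) was kept on 2 cauda arrays, at 11.88 and 12.66. The third cauda array, at 10.18, lay nearer to the caput mean than to the corpus mean. The sodium channel subunit SCN9A rose from 5.32, 5.40 and 6.15 to 10.27, 10.02 and 10.87, a difference of 4.76 (SE 0.55) with no overlap.

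CD52, a lipid-anchored glycopeptide that sperm take up in the duct, read 8.29, 8.35 and 7.90 in caput and 12.74, 12.35 and 12.28 in corpus. It rose by 4.28 (SE 0.15, limma adjusted p = 3.76e-07), and the cauda arrays were higher still at 13.38, 13.47 and 13.31. MTNR1A, a melatonin receptor, read 5.55, 5.90 and 5.54 in caput, 8.72, 9.61 and 9.48 in corpus and 5.21, 5.50 and 5.25 in cauda. SMPD3, a neutral sphingomyelinase, rose by 3.56 (SE 0.19) and read 6.69 to 7.20 in cauda. Of the other members of the 15 largest rises, TNN, a tenascin of the extracellular matrix, rose by 3.87, the channel-like protein TMC2 by 3.86 and the kinase-like protein STYK1 by 3.88. LOC523503 rose by 7.05, LOC532207 by 5.03, LOC522479 by 3.57 and the olfactory receptor OR9K2J by 3.81. For 8 of the 15 genes all 3 cauda arrays were nearer to the caput mean than to the corpus mean, among them GDF3, ENTPD3, TMC2 and MTNR1A. For 5 of the 15 all cauda arrays were nearer to corpus, and these were LOC523503, CD52, OR9K2J, GPX2 and LOC522479.

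GPX5, a glutathione peroxidase that the caput secretes in large amounts in rodents, was the named gene with the largest fall. It read 13.54, 13.38 and 13.67 in caput and 6.95, 6.35 and 6.95 in corpus. No arrays overlapped, and the fall of 6.78 (log2, SE 0.29, limma adjusted p = 9.17e-07) was followed by middle values of 9.73, 8.53 and 9.42 in cauda. The beta-defensin DEFB122A fell by 6.41, from 12.44, 12.60 and 12.24 to 6.27, 6.01 and 5.76. PDZK1, a scaffold protein that holds transporters at the apical membrane, fell by 5.39 (SE 0.13), from 12.05, 11.86 and 12.25 to 6.70, 6.83 and 6.45. PROKR1, a prokineticin receptor, read 12.01, 11.71 and 12.13 in caput and 7.10, 6.42 and 6.71 in corpus, a fall of 5.21 (SE 0.19).

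Further large falls were those of NXPE2 by 5.61, the carboxypeptidase CPM by 5.16, the neuronal scaffold protein LRRC7 by 4.85 and SLC35F1 by 4.72. LOC100296105 fell by 6.18, LOC506921, for which the reference table gives the synonym PEPT2, by 4.81, and LOC100296670 by 4.79. Corpus arrays of LOC100296670 were far apart at 4.82, 8.88 and 6.76, all below its caput values of 11.58, 11.96 and 11.28. For 14 of the 15 largest falls all 3 cauda arrays were nearer to the corpus mean than to the caput mean. The exception was LOC506921, whose first cauda array at 7.99 lay a little nearer to caput.

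**Figure D2:**
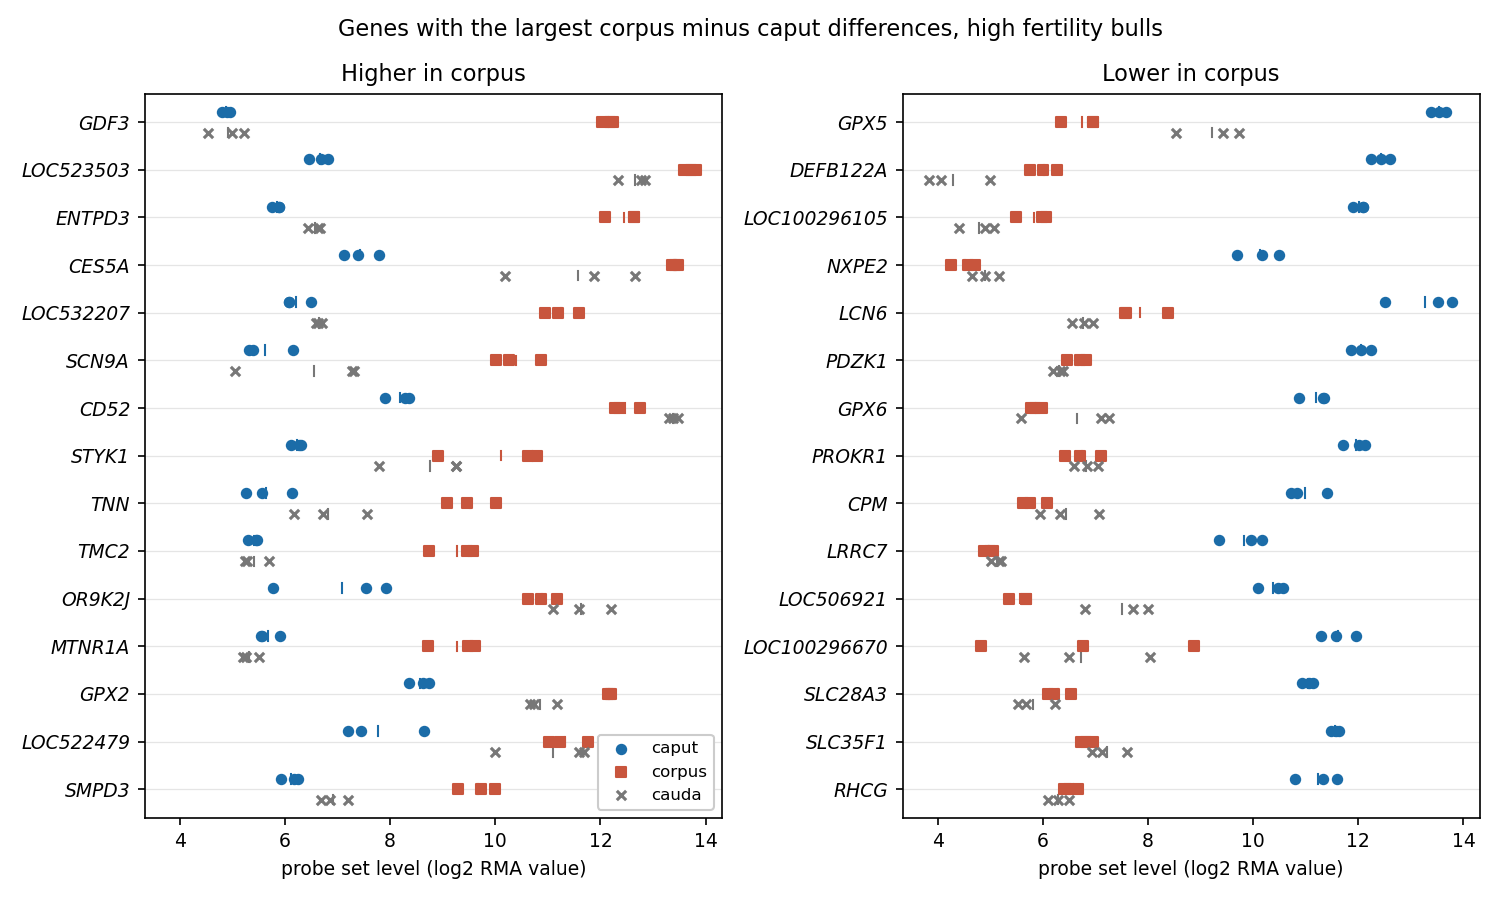
Levels (log2 RMA value, x axis) of the 15 genes with the largest rise and the 15 with the largest fall, for the 3 high fertility arrays of caput (circles), corpus (squares) and cauda (crosses), with a short bar at each mean. The genes were chosen among those whose caput and corpus arrays do not overlap, and cauda arrays lie with caput for GDF3 and ENTPD3 but with corpus for CD52 and DEFB122A.

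Within the glutathione peroxidases, enzymes that reduce peroxides with glutathione, the members went opposite ways. Of 8 measured, GPX5 and GPX6 fell, GPX2 rose and 5 did not pass the test. GPX6 read 11.35, 10.88 and 11.34 in caput and 5.98, 5.85 and 5.77 in corpus, a fall of 5.32 (SE 0.38). GPX2 read 8.63, 8.74 and 8.35 in caput and 12.14, 12.19 and 12.18 in corpus, a rise of 3.60 (SE 0.15, limma adjusted p = 8.48e-07). GPX3, the extracellular form found in plasma, read 11.43, 11.57 and 11.54 in caput and 11.43, 11.61 and 11.12 in corpus, with a difference of -0.13 (SE 0.15, limma adjusted p = 0.569).

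Lipocalins are small secreted carriers of lipids. Of 7 measured in this list, 2 fell and 0 rose. LCN6, an epididymal lipocalin, read 13.78, 13.52 and 12.51 in caput and 8.39, 7.56 and 7.59 in corpus, a fall of 5.42 (SE 0.33). PTGDS, prostaglandin D synthase, fell by 0.92. LCN6 stayed low in cauda at 6.95, 6.56 and 6.79.

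Ribonucleases of the A family are secreted proteins whose genes lie in the same region, only some of them adjacent. Of 7 measured, 4 fell and 2 rose. RNASE10 read 12.39, 11.67 and 12.12 in caput and 6.73, 9.46 and 6.40 in corpus, a fall of 4.53 (SE 0.66, limma adjusted p = 0.00129). Corpus replicate 2 was the high one, still below every caput array. RNASE13 fell by 2.85 (SE 0.16), RNASE6 by 1.58 and RNASE4 by 0.77. RNASE11, which neighbours RNASE10 in the reference annotation, rose from 9.63, 8.57 and 9.29 to 10.73, 10.40 and 10.35, by 1.33 (SE 0.26, limma adjusted p = 0.00579). RNASE12 rose by 0.40 (limma adjusted p = 0.0226), and its call was lost without caput replicate 2 or any 1 of the corpus arrays (limma adjusted p up to 0.0813). With all 18 arrays in the fit, 0 of the 7 were called higher and 3 lower.

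Beta-defensins are small cationic peptides, several of which coat sperm. Of 14 measured, 4 fell and 3 rose. DEFB110 read 13.03, 12.81 and 12.89 in caput and 10.46, 10.01 and 10.08 in corpus, a fall of 2.73 (SE 0.25). DEFB116 fell by 1.13 and DEFB122 by 1.33, the second with its call lost without caput replicate 2, corpus replicate 2 or corpus replicate 3 (limma adjusted p up to 0.0726). DEFB7 rose by 1.79 (SE 0.22), from 8.71, 8.51 and 8.30 to 10.57, 9.69 and 10.62. The count of 3 that rose was 1 without caput replicate 2 or caput replicate 3, with array medians subtracted, quantile normalization or cyclic loess on top, and with the block on the 6 compared arrays. The count of 4 that fell was 2 with all 18 arrays in the fit.

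Protease inhibitors of the cystatin, WFDC and Kunitz families had 3 of 29 higher (10.3%) and 3 lower (10.3%). Both shares were below the 12.7% and 14.1% over all named genes. CST11, an epididymal cystatin, fell by 1.85 (SE 0.25), from 8.53, 7.55 and 8.05 to 6.28, 6.47 and 5.83. SPINLW1, known as eppin, a sperm-binding inhibitor, fell by 1.61 (SE 0.27) from 13.50, 13.54 and 13.47 to 11.41, 12.29 and 11.98. With the replicate number as a block the higher count was 6, and it was 1 without caput replicate 2 or corpus replicate 1. WFDC8, chosen after its values were seen, read 13.26, 13.20 and 13.40 in caput, 13.04, 13.12 and 13.15 in corpus and 7.92, 8.23 and 7.75 in cauda. Its corpus minus caput difference of -0.19 did not pass (limma adjusted p = 0.307).

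Of 28 measured proteins that the duct passes to sperm, 5 rose and 7 fell. Besides CD52 and CES5A, PATE1, a small secreted protein of the prostate and testis expressed family, rose from 9.19, 10.62 and 8.12 to 11.53, 11.99 and 11.84. That rise was 2.48 (SE 0.51, limma adjusted p = 0.00793), with caput arrays spread over more than 2 log2 units. Its neighbour PATE2 fell by 1.16 (SE 0.32, limma adjusted p = 0.0298), a call that was lost without any 1 of the arrays other than corpus replicate 2 (limma adjusted p up to 0.0945). CD9, a tetraspanin carried on epididymal vesicles, rose by 1.64 (SE 0.13). MFGE8, a secreted adhesion protein also called lactadherin or SED1, fell by 1.59, and the lysosomal glycosidases HEXA and GLB1 fell by 1.18 and 1.14. GLB1L3, a beta-galactosidase-like protein, fell by 2.34 (SE 0.37), from 12.43, 12.53 and 12.54 to 9.39, 10.80 and 10.27. The adjacent GLB1L2, chosen after its values were seen, rose by 0.86 (SE 0.13), from 10.79, 10.59 and 10.87 to 11.41, 11.80 and 11.63. With all 18 arrays in the fit, 3 of the 28 were called lower.

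The lumicrine pathway, worked out in mice, runs from the testis-derived ligand NELL2 through the receptor tyrosine kinase ROS1 and ERK signalling to the secreted protease OVCH2 of the initial part of the caput. OVCH2 read 10.11, 9.79 and 9.18 in caput and 5.29, 5.20 and 5.70 in corpus, a fall of 4.30 (SE 0.23, limma adjusted p = 3.76e-06). ROS1 did not differ beyond the spread, at 11.73, 11.73 and 11.83 in caput and 11.54, 11.67 and 11.68 in corpus (-0.13, SE 0.11, limma adjusted p = 0.419). NELL2 itself read 5.94 to 6.05 in caput and 6.15 to 6.34 in corpus (0.25, SE 0.09, limma adjusted p = 0.0895).

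The list of this pathway also holds ERK targets and feedback inhibitors, and over its 23 measured members 8 rose, 2 fell and 13 did not pass, with a median of 0.31. ETV5, an ETS transcription factor of the PEA3 group, read 6.31, 6.63 and 6.71 in caput and 9.33, 9.84 and 9.52 in corpus, a rise of 3.01 (SE 0.15, limma adjusted p = 2.67e-06). Its relative ETV4 rose by 0.93 (SE 0.15), the ERK phosphatase DUSP6 by 1.15 (SE 0.15) and the inhibitors SPRED2 and SPRY2 by 1.13 and 0.95. The ERK phosphatase DUSP4 differed by 0.36 on its brighter probe set (limma adjusted p = 0.0513). The second member that fell was ADAM3A, a sperm surface protein gene, by 1.40. With array medians subtracted 4 members fell. With all 18 arrays in the fit 4 rose and 1 fell, and the calls of ETV4, DUSP6, SPRY2 and ADAM3A were lost. In medium-low caput replicates 1 and 2, ETV4 read 11.34 and 10.65. The other 4 caput arrays lay between 5.60 and 6.30.

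Genes for ion transport changed in both directions. CFTR, the apical chloride and bicarbonate channel, read 9.53, 9.12 and 9.11 in caput, 5.23, 5.67 and 5.34 in corpus and 8.44, 8.43 and 7.90 in cauda. Corpus fell by 3.84 (SE 0.19, limma adjusted p = 2.08e-06) with no overlap, and cauda lay near caput. SLC9A2, a sodium/proton exchanger, fell by 3.72 (SE 0.39), from 10.11, 9.96 and 10.03 to 5.53, 6.05 and 7.35. SLC26A3, a chloride/bicarbonate exchanger, fell by 2.55 (SE 0.34), from 10.03, 9.25 and 9.60 to 7.62, 7.29 and 6.33, and its cauda arrays were again high at 9.76, 9.58 and 10.31.

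SLC26A4, or pendrin, an anion exchanger of the same family, went the other way. It read 5.19, 5.55 and 5.48 in caput, 8.15, 8.21 and 8.02 in corpus and 5.64, 5.53 and 6.48 in cauda, a rise of 2.72 (SE 0.22, limma adjusted p = 5.08e-05). Of 25 sodium and anion channels and exchangers measured, 5 rose (20%) and 4 fell (16%). SCN9A was among the risers, which numbered 3 without caput replicate 2. ANO1, a calcium-activated chloride channel, rose by 1.30 (limma adjusted p = 0.0284), a call lost without caput replicate 1, caput replicate 2, corpus replicate 1 or corpus replicate 2 (limma adjusted p up to 0.0968). The bicarbonate cotransporter SLC4A4 fell by 0.71 (limma adjusted p = 0.0251) and lost its call without caput replicate 2 or corpus replicate 3 (limma adjusted p up to 0.0880).

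Proton pump subunits and other genes of luminal acidification had 3 of 16 members higher (18.8%) and 2 lower (12.5%). With all 18 arrays in the fit 1 was lower. RHCG, an ammonia transporter, read 11.59, 10.79 and 11.33 in caput and 6.66, 6.50 and 6.40 in corpus, a fall of 4.71 (SE 0.19). CA2, a carbonic anhydrase, fell by 1.32 (SE 0.13), and the proton pump subunit ATP6V1C2 rose by 1.19. Of 10 aquaporins, 1 rose and 0 fell. That one was AQP2, by 0.37 (limma adjusted p = 0.0404). Its call was lost without caput replicate 2, caput replicate 3, corpus replicate 2 or corpus replicate 3 (limma adjusted p up to 0.127). No aquaporin was called with the replicate block, all 18 arrays in the fit or array medians subtracted. The same held with quantile normalization or cyclic loess on top and with a trended and robust prior.

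Of 10 measured genes of phosphate transport and its scaffolds, 4 fell in corpus and 0 rose. SLC34A2, a sodium/phosphate cotransporter of the apical membrane, fell by 3.85 (SE 0.14), from 10.10, 10.49 and 10.07 to 6.20, 6.46 and 6.47. PDZK1IP1, a membrane protein that binds PDZK1, read 10.02, 9.98 and 9.53 in caput, 7.86, 7.07 and 7.59 in corpus and 11.10, 10.74 and 11.06 in cauda. The phosphate exporter XPR1 fell by 0.97 (SE 0.14). The list gave 4 lower and 0 higher in every setting in which lists were counted.

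Among 37 transporters of amino acids and organic ions, 6 rose and 10 fell. SLC7A11, the cystine/glutamate exchanger, read 7.10, 7.09 and 7.42 in caput and 10.35, 10.47 and 10.40 in corpus, a rise of 3.20 (SE 0.14, limma adjusted p = 9.31e-07). The glutamine transporter SLC38A1 rose by 2.51 (SE 0.17) and was still at 9.45 to 10.13 in cauda, while SLC7A11 had returned to 7.60 to 8.02. SLC7A2, a cationic amino acid transporter, fell by 1.86 (SE 0.12), and the organic anion transporter SLCO4C1 fell by 3.65 (SE 0.40), from 8.18, 8.77 and 8.84 to 4.57, 6.01 and 4.28. The carnitine transporters SLC22A5 and SLC22A16 fell by 0.90 and 1.25.

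Enzymes that act on extracellular nucleotides and lysophospholipids, listed together with nucleoside transporters, had 3 of 21 members higher (14.3%) and 5 lower (23.8%). The higher count was 1 when caput replicate 2, corpus replicate 2 or corpus replicate 3 was left out. While ENTPD3 rose, ENPP2, also called autotaxin, fell by 3.76 (SE 0.19), from 12.74, 12.94 and 12.94 to 8.93, 8.87 and 9.55. ENPP1, a nucleotide pyrophosphatase, fell by 3.22 (SE 0.20), from 12.25, 12.37 and 12.35 to 8.87, 8.97 and 9.47. Their relative ENPP3 read 12.50 to 12.71 in caput and 12.26 to 12.46 in corpus (-0.23, limma adjusted p = 0.187). SLC28A3, a concentrative nucleoside transporter, fell by 4.76 (SE 0.19), from 10.92, 11.14 and 11.06 to 6.21, 6.53 and 6.10. NT5E, which makes adenosine, rose by 0.89 (limma adjusted p = 0.0284), with its call lost without caput replicate 1, caput replicate 2, corpus replicate 2 or corpus replicate 3 (limma adjusted p up to 0.09996).

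Dual oxidases make hydrogen peroxide at the apical surface and need their maturation factors to leave the endoplasmic reticulum. DUOX1 read 8.53, 7.50 and 9.44 in caput, 11.63, 11.75 and 11.45 in corpus and 6.92, 7.30 and 7.09 in cauda, a rise of 3.12 (SE 0.39, limma adjusted p = 0.000515). Its maturation factor DUOXA1, the next gene in the annotation, read 8.36, 7.22 and 9.14 in caput, 11.24, 11.46 and 11.06 in corpus and 6.71, 6.61 and 6.45 in cauda. In both genes caput replicate 2 was lowest and caput replicate 3 highest. The second pair at that locus changed less: DUOX2 rose by 0.57 (limma adjusted p = 0.0308) and DUOXA2 differed by 0.44 (limma adjusted p = 0.0522). The call of DUOX2 was lost without any 1 of the arrays other than caput replicate 3 (limma adjusted p up to 0.0959). Of 16 dual and NADPH oxidase genes measured, 3 rose (18.8%) and 2 fell (12.5%). The higher count was 5 with array weights or with 1 probe set per gene. It was 2 without caput replicate 2 or any 1 of the corpus arrays, and with the block on the 6 compared arrays. The falls of CYBB by 0.51 and NOXA1 by 0.43 were small.

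**Figure D3:**
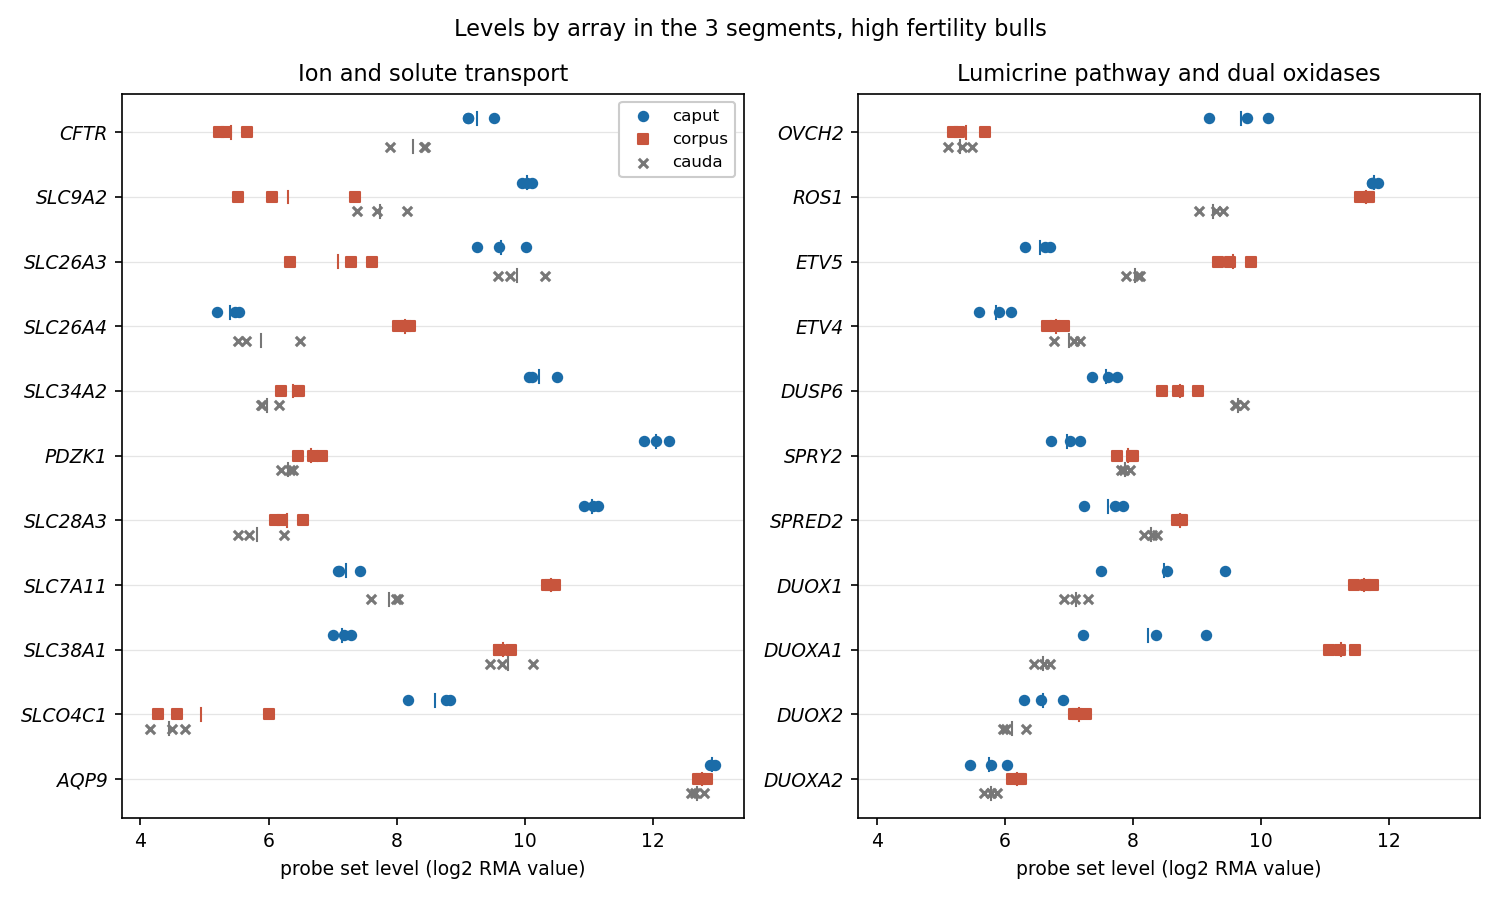
Levels (log2 RMA value, x axis) of genes of ion and solute transport (left) and of the lumicrine pathway and the dual oxidases (right) on the 3 high fertility arrays each of caput (circles), corpus (squares) and cauda (crosses), with short bars at the means. CFTR and SLC26A3 are low in corpus alone, SLC26A4, DUOX1 and DUOXA1 are high in corpus alone, and OVCH2 is high in caput alone.

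Transcription factors of the ductal epithelium were more often higher than lower in corpus, 9 of 26 against 1, with a median of 0.23. ELF5, an ETS factor of secretory epithelia, read 8.25, 8.52 and 9.03 in caput, 11.11 ± 0.094 (SD, n = 3) in corpus and 5.35, 5.33 and 5.74 in cauda. Its rise was 2.51 (SE 0.19, limma adjusted p = 3.16e-05). PAX2, needed for development of the duct, rose by 1.41 (SE 0.14), from 10.66, 10.36 and 10.76 to 12.10, 12.01 and 11.91. TFAP2A rose by 1.19, PAX8 by 1.00, ELF3 by 0.99 and GATA3 by 0.89. HNF4A, a nuclear receptor of absorptive epithelia, was the 1 that fell, by 1.90 (SE 0.16), from 8.17, 8.45 and 8.81 to 6.50, 6.55 and 6.67.

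HOX genes set position along the body axis, and 8 of 33 measured were higher in corpus and 4 lower. HOXA9 rose by 2.12 (SE 0.27), from 5.25, 4.94 and 4.55 to 7.40, 6.84 and 6.85, and reached 8.68, 8.51 and 9.45 in cauda. HOXC8 fell by 0.87 (SE 0.09), from 9.05, 8.88 and 9.01 to 8.10, 8.07 and 8.15. The higher count was 4 without caput replicate 2, caput replicate 3, corpus replicate 1 or corpus replicate 3 and 5 without caput replicate 1. The lower count was 2 without corpus replicate 3.

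Steroid receptors and enzymes of androgen metabolism had 5 of 22 members higher and 5 lower. SRD5A2, a 5-alpha-reductase that makes dihydrotestosterone, fell by 2.77 (SE 0.19), from 7.32, 6.54 and 7.32 to 4.29, 4.23 and 4.34. Its relative SRD5A1 differed by -0.05 (SE 0.20, limma adjusted p = 0.892). SRD5A3 fell by 1.27 and HSD11B1, which regenerates active glucocorticoid, by 1.85. CYP11A1, which starts steroid synthesis by cutting the side chain of cholesterol, read 7.98, 8.40 and 7.76 in caput, 5.59, 5.65 and 5.58 in corpus and 9.49, 9.69 and 9.63 in cauda. The glucocorticoid receptor NR3C1 rose by 1.31 (SE 0.15), from 7.36, 7.34 and 7.91 to 8.83, 8.84 and 8.87. The estrogen receptors did not pass on their brighter probe sets, with ESR1 at -0.30 (limma adjusted p = 0.175) and ESR2 at 0.22 (limma adjusted p = 0.0931). The higher count of 5 fell to 2 without caput replicate 2, corpus replicate 1 or corpus replicate 3 and with array medians subtracted, and to 3 without corpus replicate 2, with cyclic loess on top and with all 18 arrays in the fit.

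Cholesterol and fatty acid synthesis was lower in corpus, with 14 of 26 genes down and 2 up and a median of -0.50. The desaturase SCD fell by 1.84 (SE 0.37), from 9.03, 8.47 and 10.13 to 7.49, 7.27 and 7.36, and was high again in cauda at 9.93, 10.86 and 10.39. FADS1, a desaturase of long-chain fatty acids, fell by 1.79 (SE 0.22) and the elongase ELOVL5 by 1.30 (SE 0.15). Of sterol enzymes, TM7SF2 fell by 1.09 and NSDHL by 1.07. ACLY, which makes cytosolic acetyl-CoA from citrate, rose instead, by 1.79 (SE 0.11, limma adjusted p = 1.22e-05), from 9.84, 9.84 and 10.05 to 11.83, 11.74 and 11.54. Between 12 and 15 of the 26 were called lower in all settings counted, and the 2 that rose were 1 without corpus replicate 1 or corpus replicate 3.

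Genes for folding and export of proteins in the endoplasmic reticulum were also lower, 14 of 38 down and 1 up. The disulfide isomerase PDIA5 and the co-chaperone DNAJC3 each fell by 0.99, SRP9, a subunit of the signal recognition particle, by 0.89, and SSR4, a subunit of the translocon, by 0.87. DDIT3, a transcription factor of the stress response of this compartment, was the 1 that rose, by 0.80 (SE 0.11). The changes were small, with a list median of -0.21 and no member past 2-fold, and 11 to 16 members were called lower over the settings counted. Respiratory complex subunits encoded in the nucleus fell in 14 of 53 cases and rose in 4, all by less than 2-fold. The fallers were fewer without 1 array, 8 without caput replicate 2, caput replicate 3 or corpus replicate 1 and 7 without corpus replicate 3, and they numbered 21 with array medians subtracted. The risers were 2 without any 1 of these 4 arrays and with array medians subtracted.

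Antioxidant enzymes outside the glutathione peroxidases had 10 of 33 members lower and 2 higher. Catalase (CAT) fell by 1.68 (SE 0.18), from 11.73, 11.72 and 11.42 to 9.85, 9.82 and 10.15. The quinone reductase NQO1 fell by 1.76, and PRDX4, the peroxiredoxin of the endoplasmic reticulum, fell by 1.56. The glutathione transferase GSTA2 fell by 2.81 (SE 0.32). GSR, which regenerates reduced glutathione, rose by 1.12 (SE 0.19), from 7.38, 7.82 and 7.56 to 8.87, 8.83 and 8.43, and was highest in cauda at 10.37, 10.51 and 9.88.

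Enzymes that attach sialic acid, fucose and galactose to glycoproteins changed in both directions, 7 of 38 higher (18.4%) and 8 lower (21.1%). ST6GALNAC1, which adds sialic acid to O-linked glycans, rose by 2.63 (SE 0.14), from 6.78, 6.77 and 6.66 to 9.67, 9.35 and 9.07, and ST6GALNAC2 rose by 2.15. ST8SIA6, which extends sialic acid on glycans, fell by 2.49 (SE 0.18), ST3GAL1 by 2.45 (SE 0.18) and B4GALT4 by 2.34 (SE 0.09). The higher count was 4 without caput replicate 2 or corpus replicate 1.

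Junction proteins had 8 of 28 members higher and 4 lower. CLDN2, a claudin that forms paracellular pores for cations, fell by 2.81 (SE 0.30), from 8.84, 9.59 and 8.17 to 5.84, 6.02 and 6.32, and CLDN1 fell by 1.25. CLDN23 rose by 1.60 (SE 0.18), CLDN4 by 1.09 and MARVELD3, a tight junction protein, by 1.22. The higher count was 5 without caput replicate 3 or corpus replicate 1.

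**Figure D4:**
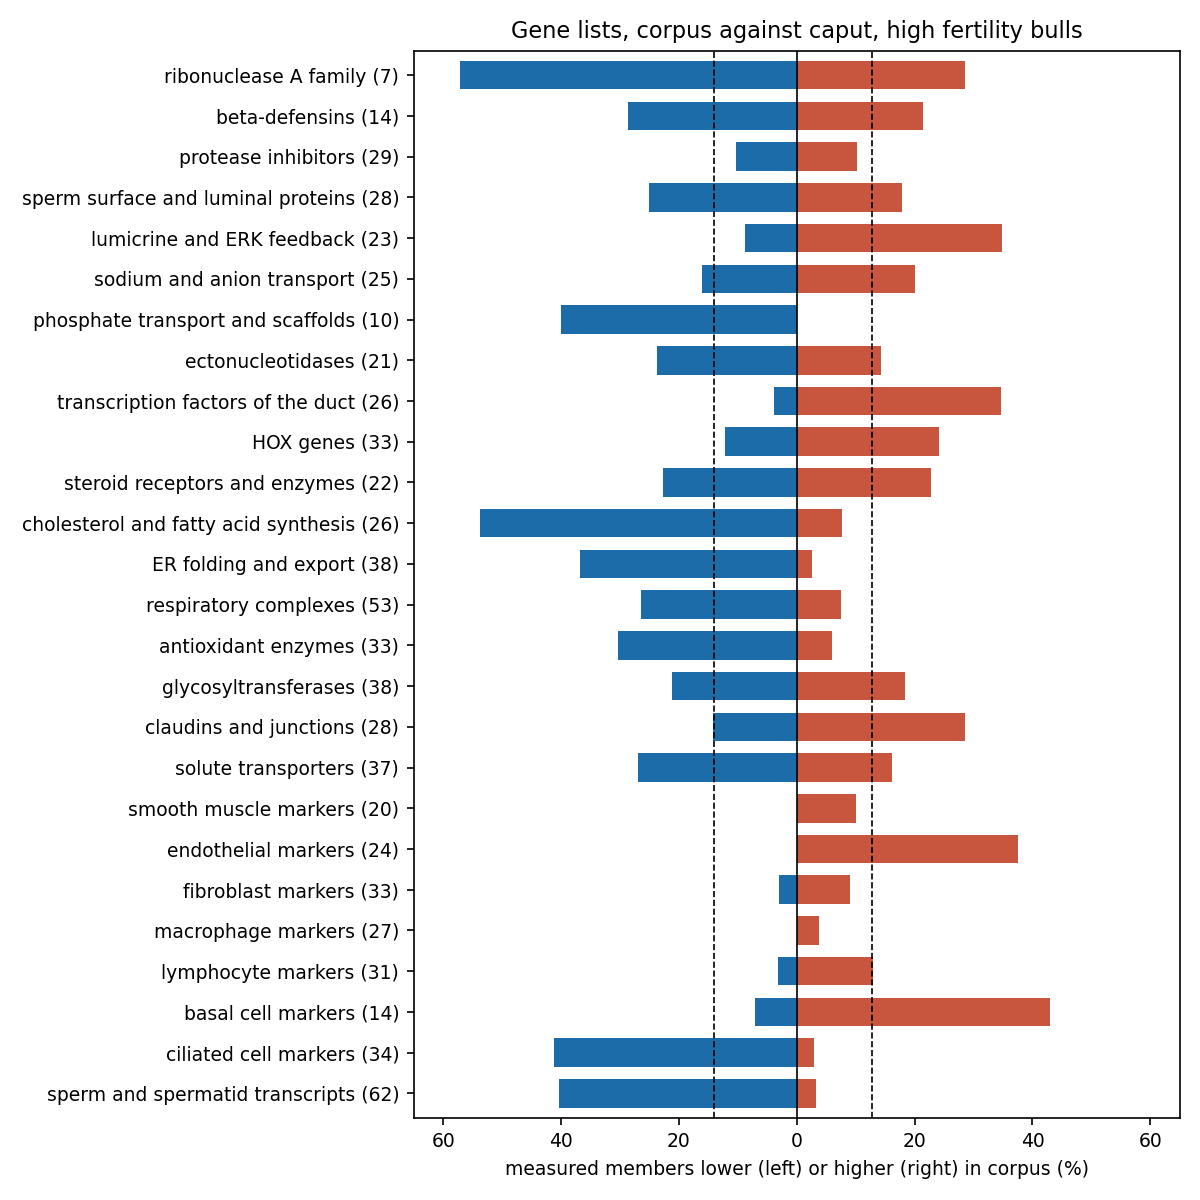
Bars give the percentage of the measured members of 26 gene lists (number measured in brackets) that were lower in corpus (left, blue) or higher (right, red) at a limma adjusted p under 0.05. Dashed lines mark the shares over all named genes, 14.1% lower and 12.7% higher. The ribonuclease A family, with 7 measured, reaches furthest left at 57.1%. Cholesterol and fatty acid synthesis, ciliated cell markers and spermatid transcripts are among the other lists past the left line.

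Markers of other cell types were measured beside these lists, and their part in the results above was not tested. Over all named genes 12.7% were higher and 14.1% lower. Endothelial markers were higher in corpus in 9 of 24 genes and lower in 0, with list means of 7.17 to 7.32 on caput arrays and 7.47 to 7.73 on corpus arrays. The VEGF receptor KDR rose by 1.67 (SE 0.13), from 7.25, 7.26 and 7.59 to 8.98, 9.21 and 8.90, while ESAM rose by 0.61 and CDH5 by 0.52. The count was 2 without caput replicate 3 or corpus replicate 3, 3 without corpus replicate 1, 5 without caput replicate 2 and 6 without caput replicate 1, and KDR was called in each of these fits. Basal cell markers were higher in 6 of 14 genes and lower in 1, at list means of 8.08 to 8.29 in caput and 8.43 to 8.54 in corpus. The keratin KRT15 rose by 1.26, the transcription factor TP63 by 0.92 and the integrin ITGA6 by 1.05, whereas TRIM29 fell by 2.35 (SE 0.15). KRT5 rose by 0.91 on its brighter probe set, while its other one did not pass (-0.20, limma adjusted p = 0.184).

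Markers of smooth muscle, fibroblasts, macrophages, lymphocytes and red cells were called higher in 0% to 12.9% of their members in the main fit. They were called lower in 0% to 3.23%, and both lay near or below the shares over all named genes. With the replicate number as a block, 3611 of 26773 probe sets were higher. Smooth muscle, fibroblast and red cell markers had larger higher shares than that in the block fit. Smooth muscle markers were higher in 2 of 20 genes and lower in 0, with list means of 10.05 to 10.39 in caput and 10.26 to 10.74 in corpus that overlapped. With the replicate number as a block the count was 9, and without caput replicate 1, caput replicate 2, corpus replicate 1 or corpus replicate 3 it was 1. It was also 1 in the 6 compared arrays alone, with all 18 arrays in the fit and with array medians subtracted or cyclic loess. NPNT, a matrix protein, rose by 1.57 (SE 0.12) and desmin (DES) differed by 0.27 (limma adjusted p = 0.132). Fibroblast markers had 3 of 33 genes higher and 1 lower, 7 and 3 with the block, at overlapping list means of 8.52 to 8.70 and 8.58 to 9.15. The fibroblast count of 3 was 1 without caput replicate 2, caput replicate 3, corpus replicate 1 or corpus replicate 3. The 1 that fell, SFRP2, was not called with all 18 arrays or with quantile normalization or cyclic loess. Its call was also lost without caput replicate 1, caput replicate 2 or any 1 of the corpus arrays (limma adjusted p up to 0.121). Macrophage markers had 1 of 27 higher and 0 lower, 2 higher with the block or without caput replicate 3, and 0 with array medians subtracted or without caput replicate 1, caput replicate 2, corpus replicate 1 or corpus replicate 2, and overlapped at 7.38 to 7.62 and 7.43 to 7.61. Lymphocyte markers had 4 of 31 higher and 1 lower, and 2 and 2 with the block. The 4 were 0 without caput replicate 2, corpus replicate 1 or corpus replicate 2, 1 without caput replicate 1 or corpus replicate 3 and 2 without caput replicate 3. They were also 1 with array medians subtracted, quantile normalization or the block on the 6 compared arrays, and 0 with cyclic loess on top. The lower count was 2 without caput replicate 1. Red cell markers had 0 of 11 past the threshold in either direction, and 2 higher with the block or in the 6 compared arrays alone.

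Genes of motile cilia, which line the efferent ductules upstream of the caput, were lower in corpus in 14 of 34 cases and higher in 1, or 2 with the replicate block. The axonemal dynein DNAH5 read 8.63, 8.58 and 8.91 in caput and 6.13, 5.92 and 6.13 in corpus, a fall of 2.65 (SE 0.11, limma adjusted p = 9.56e-07). DNAH1 fell by 1.16 and CCDC39, an axonemal assembly factor, by 0.94. DNAH11, another dynein heavy chain, rose by 1.92 (SE 0.14) on its brighter probe set and by 1.72 on the other. List means were at least 6.81 in caput and at most 6.66 in corpus, and 10 members were called lower without caput replicate 2, caput replicate 3 or corpus replicate 1 and 9 with all 18 arrays in the fit.

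Transcripts of sperm and spermatids were lower in corpus in 25 of 62 cases and higher in 2, with a median of -0.26. The duct holds sperm in its lumen, but the source of these transcripts was not tested. The protamine PRM1 read 12.25, 12.29 and 12.31 in caput and 10.94, 10.61 and 10.89 in corpus, a fall of 1.47 (SE 0.28, limma adjusted p = 0.00575). GSG1 and CRISP2 each fell by 1.89, SMCP, a protein of the sperm mitochondrial capsule, by 1.65. The chaperone CLGN fell by 1.66. List means were 6.56 to 6.75 in caput and 6.18 to 6.27 in corpus, without overlap. Genes of spermatogonia and meiosis fell in 6 of 28 cases and rose in 1, or 3 with the replicate block and 0 without caput replicate 2, and MEIOB fell by 2.57, from 5.62, 6.82 and 6.22 to 3.69, 3.60 and 3.65. The spermatid count of 25 was 3 with all 18 arrays in the fit and 19 to 24 without any 1 array, and the 2 that rose were 1 without caput replicate 2, caput replicate 3, corpus replicate 1 or corpus replicate 2. The meiosis count of 6 was 2 with all 18 arrays. In the medium-low group, PRM1 read 10.05, 13.03 and 13.25 in caput and 10.03, 13.07 and 10.65 in corpus, so replicates of 1 segment differed there by more than the high fertility segments did.

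Stress and interferon genes were counted as well. Immediate early and heat shock genes also respond to tissue handling, and its part in these differences was not tested. Of 38 immediate early and heat shock genes, 11 rose and 4 fell, or 2 fell with all 18 arrays in the fit, with a median of 0.29. JUN rose by 1.26 (SE 0.15), from 9.37, 8.92 and 9.03 to 10.20, 10.26 and 10.65, KLF6 by 0.86 and DUSP1 by 0.83. Of 29 interferon-stimulated genes, 5 rose and 2 fell, and the risers were 2 without caput replicate 2 and 3 without caput replicate 1 or corpus replicate 1 or with all 18 arrays. The fallers were 4 with array medians subtracted or a trended and robust prior. MX1 rose by 1.15 (SE 0.29, limma adjusted p = 0.0207), from 7.10, 7.22 and 7.37 to 9.14, 8.04 and 7.96, with corpus replicate 1 the high one. Its call was lost without caput replicate 1 or caput replicate 2 (limma adjusted p up to 0.0605). DHX58, an RNA sensor of the RIG-I family, fell by 1.85 (SE 0.12), from 10.56, 10.66 and 10.87 to 8.96, 8.81 and 8.77.

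The medium-low fertility bulls gave arrays that took no part in choosing these probe sets. Of the 516 probe sets called at least 2-fold higher in corpus of high fertility bulls, 94.6% (488) had a positive difference in the medium-low bulls, and of the 757 called lower, 92.9% (703) had a negative one. Over all probe sets 74.3% had the same sign. Median differences were 1.44 in high and 1.18 in medium-low bulls for the higher set, and -1.45 and -0.89 for the lower set. Medium-low caput replicates stood apart from one another, correlating at 0.951 to 0.980. For the 757 caput-high probe sets, replicates 1 and 2 were nearer to the high fertility corpus mean than to the high fertility caput mean in 58.5% and 51.4%, and replicate 3 in 3.7%. Against caput replicate 3 alone, the medium-low corpus mean had the same sign in 99.6% of the higher and 99.9% of the lower set, and in 81.8% of all probe sets, a comparison chosen after the values were seen.

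This pattern differed from gene to gene. DEFB122A, at 12.24 to 12.60 in high fertility caput, read 4.53, 3.99 and 12.33 in the 3 medium-low caput replicates. CPM read 5.42, 5.40 and 11.03 there, NXPE2 4.31, 5.04 and 9.90, and RHCG 6.36, 7.22 and 10.99. In 7 of the 15 largest falls, both of the first 2 replicates were nearer to high fertility corpus. Other genes of the same set were as high in all 3 or higher in the first 2. GPX5 read 14.06, 13.96 and 13.37, LCN6 read 13.97, 14.03 and 13.37, and SLC28A3 read 11.12, 10.95 and 11.01. OVCH2 read 12.72, 13.00 and 10.82, above its 9.18 to 10.11 in high fertility caput, and CST11 read 13.81, 13.75 and 8.36, against 7.55 to 8.53. What part position within the caput, the animal or handling had in this was not tested.

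**Figure D5:**
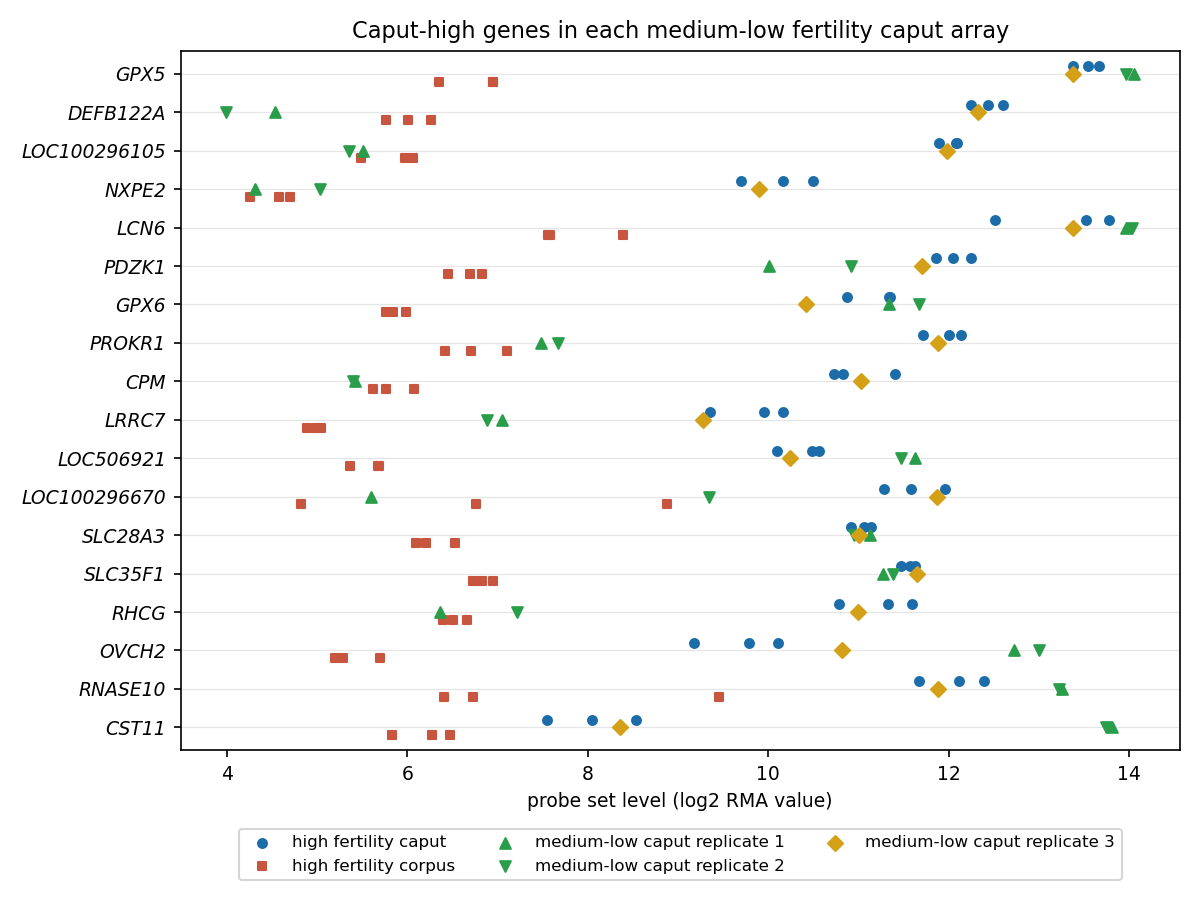
Levels (log2 RMA value, x axis) of the 15 genes with the largest fall and of OVCH2, RNASE10 and CST11 on high fertility caput (circles) and corpus arrays (squares) and on the 3 medium-low fertility caput arrays (triangles for replicates 1 and 2, diamonds for replicate 3). Replicate 3 lies nearer to high fertility caput than to corpus for every gene drawn, while replicates 1 and 2 lie with corpus for DEFB122A, CPM and NXPE2 and above caput for CST11.

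Whether the segment difference itself depended on fertility was tested by the interaction, the corpus minus caput difference of high minus that of medium-low bulls. It passed for 1 of 26773 probe sets (0.00374%), which names no gene in the sources used here, while 2293 (8.56%) had an unadjusted limma p under 0.05. GDF3 differed by 7.26 in high and 7.15 in medium-low bulls (interaction 0.12, SE 0.30, limma adjusted p = 0.952). DEFB122A differed by -6.41 and -0.50 (interaction -5.91, SE 2.05, limma adjusted p = 0.559), with medium-low caput replicates far apart. The count was 2359 without medium-low caput replicate 3 and 1893 with array weights, 0 without dim probe sets, and 3 without high caput replicate 1.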

How the data were processed

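The deposited table holds a log2 value for each probe set on each array, normalized by the authors with RMA per the submitters' processing notes, which also list Affymetrix Expression Console and Partek 6.5 without a role. RMA forces all arrays to the same distribution of probe signals and so hides any difference in total RNA between segments. The genome build is not given in the sources used here, and no coordinates are printed. Of 26773 probe sets, 18457 name 1 gene, 688 several and 7628 none in the platform annotation, which covers 18010 genes. Gene numbers matched the ARS-UCD2.0 reference table for 17996 probe sets with 1 gene, and 0 symbols changed. That table was used only for names and for which genes neighbour each other. No probe set was filtered out.

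Means of the 3 high fertility segments were fitted over their 9 arrays with limma 3.58.1 (R 4.3.3) with empirical Bayes moderation (6 residual and 3.24 prior degrees of freedom). Adjustment of p-values followed Benjamini and Hochberg across all probe sets, with a threshold of 0.05. SE is that of the model and SD that between arrays. The interaction with fertility came from a model of all 18 arrays and 6 means. Named genes were the 15 largest called differences each way without overlap of the arrays, up to 4 each way in each of 41 gene lists, all members of small lists and the 2 brightest members of cell type lists, with 1 probe set per gene, the brightest. The comparison, the lists and this rule were chosen with earlier results of these data known. No detection call, scan time or other batch comes with the values.

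Deviations of arrays from their group means showed whether replicate numbers pair the segments. They correlated at 0.196, 0.214 and 0.197 for caput and corpus arrays of the same number and at -0.14 to -0.0603 for different numbers. Caput with cauda gave 0.224 to 0.27 and corpus with cauda 0.154 to 0.213. Every pair was over 0.1, so the numbers were taken to pair the arrays, and a fit with the number as a block was set beside the main one. The other alternatives fitted fewer or more arrays, subtracted each array's median, added quantile or cyclic loess normalization, left out dim probe sets, weighted arrays, used a trended and robust prior, kept 1 probe set per gene and left out each array in turn. The fit was tested on simulated data with known differences. Their noise was drawn independently for each array, so that test does not cover the pairing seen here.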

Additional observations from a re-analysis of the deposited data

Results flagged for a closer look

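A single probe set stood out because its corpus minus caput difference differed between the fertility groups by a test of that difference. Probe set 12708857, which names no gene in the sources used here, read 9.16, 8.99 and 8.85 in high fertility caput and 4.97, 5.04 and 4.85 in high fertility corpus, a fall of 4.05 on the log2 scale. In medium-low bulls it read 5.49, 5.92 and 6.11 in caput and 5.57, 5.07 and 5.47 in corpus, a difference of -0.47. The interaction was -3.575 (SE 0.228, limma adjusted p = 3.38e-06). High fertility caput alone was high: cauda arrays lay at 5.25 to 5.59 in high and at 5.44 to 5.63 in medium-low bulls. Unlike the genes in which medium-low caput replicate 3 lay with high fertility caput, all 3 medium-low caput arrays were low here.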

How the results depend on the processing

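The 6201 calls became 7095 with the replicate number as a block, of which 5969 were shared, and list counts that the block moved by over 1.5 times are given beside the lists. Left-out arrays gave 4327 to 5341 calls, 1977 to 2572 of them higher and 2245 to 2769 lower, and the higher count was 1977 without caput replicate 2 and 2053 without caput replicate 3, against 3103. The other settings gave 5240 to 6757 calls without the block. The split was 2174 higher and 3688 lower with array medians subtracted and 2546 and 3327 with cyclic loess on top. Of 278 genes whose calls were followed, 186 kept direction and side of the threshold in every setting. The 6 changes of sign were of 2 genes that were not called. SRD5A1, at -0.05, became 0.036 with quantile normalization on top and 0.0040 with array weights, and left-out arrays gave -0.17 to 0.090, above 0 without caput replicate 1, caput replicate 2 or corpus replicate 3. FSHR, at -0.02, was -0.037 to 0.024 over left-out arrays, above 0 without corpus replicate 2. The interaction count was 3 (1 above 0, 2 below) with array medians subtracted, quantile normalization or cyclic loess on top, and 0 without dim probe sets. Array weights gave 1893 (892 above, 1001 below). Left-out arrays gave 1 to 2359 (0 to 1136 above, 1 to 1223 below), the highest without medium-low caput replicate 3, and the replicate block gave 1. With medium-low caput replicates 1 and 2 left out, a setting chosen after seeing the data, it was 2 (1 above 0), and 1 was SERPINB7 at 1.60. The cause of these changes was not tested. No detection call shows which low values are background.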

Other observations

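Several further genes, some of them known from liver, gut and kidney, were chosen after their values were seen. All those named here except clusterin differed strongly between the segments. CYP7A1, the rate-limiting enzyme of bile acid synthesis in liver, read 10.49, 10.69 and 10.61 in caput and 5.89, 6.30 and 5.72 in corpus. It fell by 4.63 on the log2 scale (SE 0.15, limma adjusted p = 2.42e-07) and read 6.31 to 6.55 in cauda. SCARB1, the HDL receptor that takes up cholesterol esters, fell by 3.89 (SE 0.10), from 11.68, 11.81 and 11.64 to 7.72, 7.76 and 7.99. VIL1, the actin-bundling protein of microvilli, fell by 3.88 (SE 0.14), and the monocarboxylate cotransporter SLC5A12 by 4.44 (SE 0.37). LTF, the secreted iron-binding protein lactoferrin, fell by 3.92, from 12.32, 12.07 and 12.02 to 8.10, 8.73 and 7.81. The keratin KRT23 rose by 3.53 (SE 0.48), the cytokine IL7 by 2.77 and the receptor tyrosine kinase ERBB4 by 2.67. In medium-low bulls these rises were 2.14, 3.28 and 3.35. The tetraspanin TSPAN1 rose by 3.26 (SE 0.47), from 5.23, 5.53 and 5.48 to 8.21, 9.99 and 7.83. Its medium-low difference was reversed at -1.51, with medium-low caput replicates at 9.05, 10.26 and 5.71. Clusterin (CLU), an abundant secreted chaperone, read 13.70, 13.76 and 13.77 in caput and 13.65, 13.71 and 13.67 in corpus, and its difference of -0.06 did not pass (limma adjusted p = 0.83).

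The remaining lists gave these counts, beside 12.7% higher and 14.1% lower over all named genes. Of 30 genes of glycolysis and the hypoxia response, 9 rose and 5 fell, or 3 fell with all 18 arrays in the fit. EGLN3, a prolyl hydroxylase that marks HIF for degradation, rose by 2.84 (SE 0.25), from 5.91, 5.75 and 6.13 to 9.42, 8.49 and 8.40, whereas NDRG1, which hypoxia induces in many cells, fell by 2.28 (SE 0.15). Of 10 CAP-domain proteins, CRISPLD1 and GLIPR1 rose by 1.44 and 1.15 and CRISP2 and CRISP3 fell by 1.89 and 0.61. The call of CRISP3 was lost without caput replicate 1, caput replicate 2, corpus replicate 1 or corpus replicate 3 (limma adjusted p up to 0.125), and with all 18 arrays in the fit neither CRISP2 nor CRISP3 was called. Cell cycle genes had 1 of 29 higher, UBE2C, and 2 lower, CCNE2 and BUB1B. Without caput replicate 1, caput replicate 2 or corpus replicate 1 these counts were 0 and 1, and the calls of UBE2C and CCNE2 were lost. Without corpus replicate 2 they were 0 and 2, and without corpus replicate 3 they were 2 and 1. Nerve, glia and fat markers had 0 of 14 higher, or 1 with the replicate block, and 3 lower, with S100B down by 1.78, LPL by 1.27 and NEFL by 1.55, the last losing its call without caput replicate 1 or any 1 of the corpus arrays (limma adjusted p up to 0.0681). Sertoli and Leydig cell markers had 1 of 16 higher, WT1, and 1 lower, CYP11A1. The call of WT1 was lost without caput replicate 2, caput replicate 3, corpus replicate 2 or corpus replicate 3 (limma adjusted p up to 0.0979), where 0 were higher, and the higher count was 2 with the replicate block and 3 with all 18 arrays in the fit. INSL3, a Leydig cell hormone, read 5.67 to 6.00 in caput and 5.99 to 6.22 in corpus.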
